A study of Mus musculus with 12 samples.

Results

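The nuclear factor I (NFI) transcription factors were followed in neural stem/progenitor cells (NSPCs) with and without Ythdf2. The members were the 4 genes of the family, *Nfia*, *Nfib*, *Nfic* and *Nfix*, found by symbol among the 24525 genes of the deposited count tables, by a rule that used no measured value. All 4 were among the 13112 genes that passed the filter on low counts. The RNA-seq came from free-floating neurospheres grown from C57BL/6 embryonic forebrain at E14.5, 3 wild-type and 3 Ythdf2-/- cultures at passage 1. Every culture was kept in 20 ng/ml EGF and 10 ng/ml bFGF with N2 and B27, which hold NSPCs in the proliferating state. The libraries were the input of an m6A immunoprecipitation, and the 6 immunoprecipitated samples were not analysed here. In the Ythdf2-/- line, LoxP sites placed on both sides of the region from upstream of the 5′ end to intron 1 were recombined through a cross with the Cre_Del_GT_07 Cre line. The labels do not say whether replicates came from separate embryos, so p-values measure the spread between these samples.

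NFI proteins bind DNA as dimers, through an N-terminal domain that the family shares, and can activate or repress transcription. In the developing forebrain Nfia, Nfib and Nfix are known for turning radial glia and neural progenitors from neuron production to glia production, Nfia together with Sox9 at the start of gliogenesis. Ythdf2 is a reader protein that binds m6A-modified mRNA and promotes its decay.

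The coding part of the family's DNA-binding region is shown because the members share it, and reads of one member could be mistaken for another where sequences match. In each gene exon 2 was 532 bases long and coding throughout. Pairwise identity over it ran from 75.8% for *Nfia* and *Nfic* to 82.0% for *Nfic* and *Nfix*, and 351 bases (66.0%) were the same in all 4 genes. The 90 bases of exon 2 with the fewest positions differing between members start at base 53. They are given below as RefSeq annotates them on GRCm38.p6 (mm10). They lie at chr4:97783134-97783223 on the plus strand (*Nfia*), and on the minus strand at chr4:82498628-82498717 (*Nfib*), chr10:81420657-81420746 (*Nfic*) and chr8:84772174-84772263 (*Nfix*). Capitals mark bases that differ from *Nfia*.
Nfia: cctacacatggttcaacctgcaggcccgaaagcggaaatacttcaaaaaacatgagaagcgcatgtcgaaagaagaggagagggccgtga
Nfib: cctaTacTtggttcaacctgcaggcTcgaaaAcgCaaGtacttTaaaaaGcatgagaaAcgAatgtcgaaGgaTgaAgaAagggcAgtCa
Nfic: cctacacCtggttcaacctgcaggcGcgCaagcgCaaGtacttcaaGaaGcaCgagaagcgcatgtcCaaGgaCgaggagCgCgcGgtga
Nfix: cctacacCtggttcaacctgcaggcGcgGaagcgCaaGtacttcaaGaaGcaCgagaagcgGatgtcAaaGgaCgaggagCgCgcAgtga
*Nfib*, *Nfic* and *Nfix* differed from *Nfia* at 16, 14 and 15 of these bases, and 22 positions varied in at least 1 member. Over whole transcripts no window of 50 bases was shared between any members. The longest identical run was 32 bases, between *Nfic* and *Nfix*, and 18 to 21 bases in the other pairs.

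*Nfia* spans chr4:97578066-98118876 on the plus strand with 11 exons in its RefSeq Select transcript, and *Nfib* spans chr4:82290173-82506751 on the minus strand with 12. *Nfic* spans chr10:81396191-81431919 (minus strand, 10 exons) and *Nfix* spans chr8:84704712-84801238 (minus strand, 11 exons). *Nfix* alone shared exonic bases with another gene of the tables, a few bases at one end with *Lyl1* on the opposite strand. The counting setting for strand was not given in the sources used here.

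The libraries held 11029827 to 13185778 counted reads. *Ythdf2* itself had 71.9 to 91.4 CPM (a gene's reads relative to library size, with TMM factors of 0.988 to 1.03) in wild type and 11.1 to 14.7 CPM in Ythdf2-/- (log2 fold change -2.66, adjusted p = 0.0547 in a quasi-likelihood test by edgeR). Wild-type replicate 3 stood apart from the other 5 libraries. It lay at 91.0 on the first principal component (74.2% of the variance), where the others lay between -30.6 and -6.04. Its summed oligodendrocyte lineage markers were at 4545 CPM, against 1795 to 2230 CPM in the other 5 libraries, and its neuronal markers at 2602 CPM, against 1344 to 1768 CPM, with 8 of 12 genes of each list highest in it. Of the oligodendrocyte lineage list, *Olig1*, *Olig2* and *Cspg4* were lowest in it. Its astroglial markers summed to 16521 CPM, against 5074 to 13899 CPM, with 5 of 11 genes highest in it. The neural progenitor markers were also divided. Their sum was lowest in it, at 3984 CPM against 5263 to 7146 CPM, with *Nes*, *Vim* and *Fabp7* among the genes at their lowest, but 7 of the 12 genes, *Sox1*, *Sox2*, *Pax6*, *Prom1*, *Msi1*, *Hes1* and *Hes5*, were at their highest. Microglia and macrophage markers summed to at most 9.01 CPM in any library, with 4 of 12 at 0 in all, and endothelial markers to at most 4.28 CPM. Mesenchymal and pericyte markers summed to 102 to 148 CPM, of which *Cspg4*, also an oligodendrocyte lineage marker, made 89.9 to 145 CPM. The other 9 summed to 3.48 to 7.76 CPM in 5 libraries and to 38.2 CPM in wild-type replicate 3, where *Pdgfrb* alone had 31.8 CPM. Values without wild-type replicate 3 are therefore given beside the comparisons of genotypes. In bulk RNA, fewer cells of a type and less RNA per cell cannot be told apart.

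Compared per length, *Nfib* and *Nfix* were the highest members, *Nfia* came next and *Nfic* was far lower. RPKM levels (CPM per kilobase of exon) were computed from the raw counts over the exons of each gene's listed transcripts, 9643, 9241, 6295 and 5861 bases for *Nfia*, *Nfib*, *Nfic* and *Nfix*. In wild type the mean RPKM level was 33.1 ± 15.5 for *Nfix*, 32.0 ± 7.63 for *Nfib*, 25.4 ± 4.75 for *Nfia* and 9.18 ± 4.49 for *Nfic* (SD, n = 3). In Ythdf2-/- it was 40.4 ± 4.02, 35.6 ± 1.43, 29.0 ± 3.08 and 7.93 ± 0.490 in the same order. *Nfia* held the third place and *Nfic* the last in all 6 libraries. *Nfib* and *Nfix* changed places between libraries, *Nfib* leading in wild-type replicates 1 and 2 and Ythdf2-/- replicate 2, so their order was not separated beyond the spread. Of the 13045 tested genes with a length, 83.6% had a lower mean RPKM than *Nfix*, 82.2% than *Nfib*, 77.5% than *Nfia* and 45% than *Nfic*.

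Between genotypes, *Nfix*, known for holding neural stem cells in a quiescent state and for hippocampal and cerebellar development, had the largest log2 fold change of the 4. Wild-type replicates 1, 2 and 3 had 145, 138 and 299 CPM, against 243, 211 and 256 CPM in the Ythdf2-/- replicates. All 3 Ythdf2-/- libraries lay above wild-type replicates 1 and 2 and below wild-type replicate 3, so the groups overlapped. The mean was 194 ± 91.1 CPM in wild type and 237 ± 23.5 CPM in Ythdf2-/- (SD, n = 3). The log2 fold change was 0.29, with a standard error of 0.322 (edgeR adjusted p = 0.999, taken over all genes tested).

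*Nfia*, an early inducer of astrocyte fate, had 221, 215 and 297 CPM in the wild-type replicates and 257, 269 and 313 CPM in the Ythdf2-/- replicates. Its wild-type replicate 3 lay within the Ythdf2-/- range while the other two lay below it. The log2 fold change was 0.19, with a standard error of 0.179 (edgeR adjusted p = 0.999).

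*Nfib*, needed for glial and deep-layer cortical development and for lung maturation, had 254, 256 and 377 CPM in wild type and 314, 336 and 337 CPM in Ythdf2-/-. Wild-type replicate 3 was again the highest library, and the other two wild-type libraries were the lowest. The log2 fold change was 0.15, with a standard error of 0.193 (edgeR adjusted p = 0.999).

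*Nfic*, best known for tooth root formation, had 43.5, 39.6 and 90.3 CPM in wild type and 53.3, 47.2 and 49.2 CPM in Ythdf2-/-. Here wild-type replicate 3 was far above every other library, and its weight gave the gene a log2 fold change of -0.21 (standard error 0.329, adjusted p = 0.999 from edgeR), below 0 although all 3 Ythdf2-/- libraries exceeded the other two wild-type ones.

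Thus 0 of 4 members passed an adjusted p under 0.05, where edgeR called 0 of 13112 genes (0%). Of all genes tested, 476 had an unadjusted p under 0.05, none of them a member, and DESeq2 called 31 (0.236%), also without a member. Limma-voom with sample quality weights, which gave wild-type replicate 3 a weight of 0.0901, called 632 genes (4.82%) and 1 of the 4 members. Wild-type replicates 1 and 2 had weights of 2.72 and 3.74, so this fit is close to leaving replicate 3 out. In it 3921 of 13112 genes had an unadjusted p under 0.05. There *Nfix* had a log2 fold change of 0.76 (adjusted p = 0.0279 from limma), and *Nfic* lay above 0, at 0.32 (adjusted p = 0.109). The exact two-sided permutation test gave p = 0.3 for *Nfia*, 0.4 for *Nfib*, 1 for *Nfic* and 0.4 for *Nfix*, and 3 against 3 libraries cannot go below 0.1. In 0 of 4 members did all Ythdf2-/- libraries exceed all wild-type libraries, a pattern found in 5.24% of the genes tested.

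**Figure D1:**
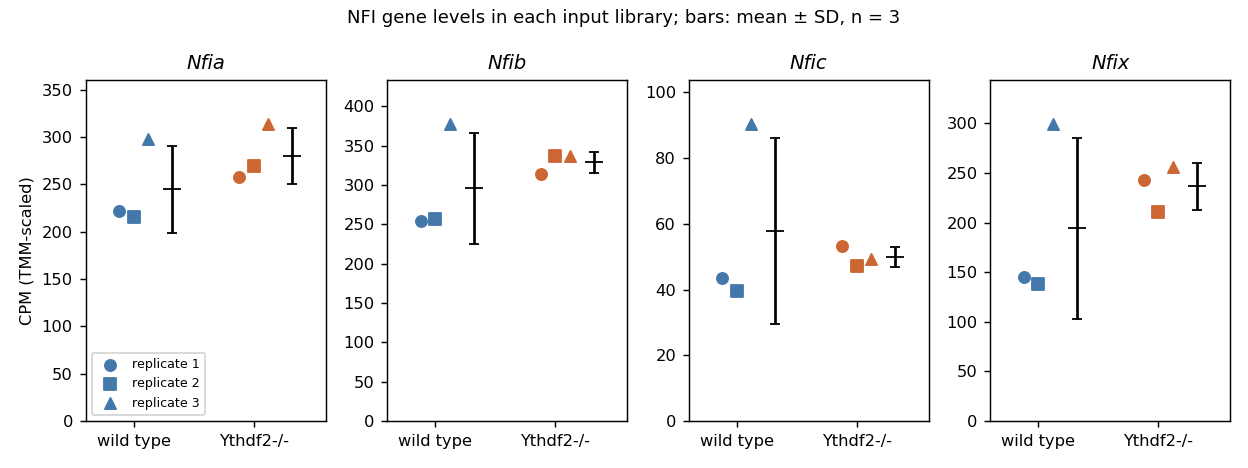
Level of each NFI gene (y axis, TMM-scaled CPM from 0, a separate scale per gene) in the 3 wild-type and 3 Ythdf2-/- libraries, with a marker shape per replicate number and bars for mean ± SD (n = 3). Wild-type replicate 3 sits above wild-type replicates 1 and 2 in all 4 panels, at 299 CPM against 145 and 138 CPM for *Nfix*.

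The level in wild-type replicate 3 relative to the mean of wild-type replicates 1 and 2 was 1.36-fold for *Nfia*, 1.48-fold for *Nfib*, 2.17-fold for *Nfic* and 2.11-fold for *Nfix*. Shifts of this size were common in that library. In 28.6%, 23.7%, 9.61% and 10.3% of the genes tested its log2 difference was larger than that of *Nfia*, *Nfib*, *Nfic* and *Nfix*. The same library was high in summed oligodendrocyte lineage, neuronal and astroglial markers, with single markers of the oligodendrocyte and progenitor lists in either direction (values above), and the part of these cells in the NFI levels was not tested.

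Without wild-type replicate 3, all 4 members were higher in Ythdf2-/-, with *Nfix* furthest from wild type. All 3 Ythdf2-/- libraries then exceeded both wild-type libraries in 4 of 4 members, where 18.8% of the genes tested showed this pattern. *Nfix* stood at a mean of 237 CPM in Ythdf2-/- against 142 CPM in the 2 remaining wild-type libraries, 1.67-fold. Its log2 fold change was 0.74, with a standard error of 0.118 (edgeR adjusted p = 0.151), and by p it ranked 49th of 13283 genes. The 2 remaining wild-type libraries were much alike. The chi-square per degree of freedom of their counts over genes was 4.76, against 23.7 to 60.2 between Ythdf2-/- libraries. Standard errors, ranks and separation of groups in this fit therefore rest on a narrow wild-type spread. *Nfia* and *Nfib* had log2 fold changes of 0.36 (standard error 0.12) and 0.37 (standard error 0.0985), 1.28-fold and 1.29-fold, with adjusted p = 0.242 and 0.201 from edgeR. The value of *Nfic* turned from below to above 0, at 0.27 (standard error 0.107, 1.20-fold, adjusted p = 0.296 from edgeR). In this fit edgeR called 0 of the 4 members and 0 genes as higher in Ythdf2-/- (0%), while 2207 genes had an unadjusted p under 0.05, the 4 members among them. DESeq2, tried on these 5 libraries after the data had been seen, called 354 genes (2.67%) and gave *Nfix* an adjusted p = 4.99e-04. Its adjusted p for *Nfib* was 0.0553, for *Nfia* 0.206 and for *Nfic* 0.426. Limma-voom on the same libraries called 2 genes (0.0151%) and gave *Nfix* an adjusted p = 0.156.

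**Figure D2:**
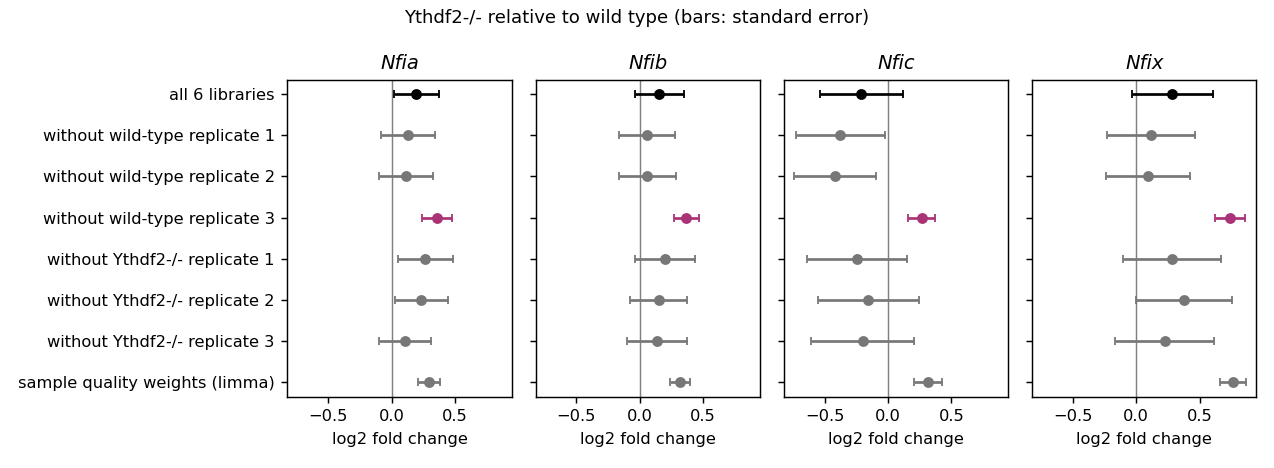
Log2 fold change of Ythdf2-/- against wild type (x axis, bars are standard errors) for each NFI gene, with all 6 libraries, with each library left out (edgeR) and with limma's sample quality weights. The value without wild-type replicate 3 lies furthest right among the fits that leave out a library in every panel, at 0.74 for *Nfix*, and only there and under the quality weights does *Nfic* lie above 0.

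Reads on Y-linked genes divided the libraries in another way. They were present (a sum above 3) in wild-type replicates 1 and 2 and in Ythdf2-/- replicate 3, and not in the other 3 libraries. Among the libraries with such reads, Ythdf2-/- replicate 3 exceeded both wild-type libraries for all 4 members. Among those without, both Ythdf2-/- libraries lay below wild-type replicate 3 for all 4 members. The direction therefore did not hold within both sets of libraries. Since wild-type replicate 3 was the sole wild-type library without Y-linked reads, that library and this split cannot be told apart in wild type. With the presence of these reads as a term beside genotype, the edgeR log2 fold changes were 0.17 for *Nfia*, 0.09 for *Nfib*, -0.30 for *Nfic* and 0.23 for *Nfix* (adjusted p = 0.668 to 0.860).

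The summed RPKM level of the family was 82.1, 79.9 and 137 for the wild-type replicates in order, against 110, 108 and 120 for the Ythdf2-/- replicates. The sum was highest in wild-type replicate 3 and lowest in the other two wild-type libraries, as for *Nfib*, *Nfic* and *Nfix*, while *Nfia* was highest in Ythdf2-/- replicate 3. As a share of the sum, *Nfia* took 26.1% ± 3.14 in wild type and 25.7% ± 1.43 in Ythdf2-/-, and *Nfib* 32.7% ± 2.57 and 31.6% ± 1.93 (SD, n = 3). The share of *Nfix* was 32.3% ± 4.30 in wild type and 35.7% ± 2.13 in Ythdf2-/- (SD, n = 3), with overlapping groups. The share of *Nfic* was 8.92% ± 1.37 in wild type and 7.04% ± 0.589 in Ythdf2-/- (SD, n = 3), and here the groups did not overlap, with 7.88% to 10.5% against 6.49% to 7.66%. A level lower in Ythdf2-/- without overlap, relative to the summed NFI level, was found for 9.55% of genes. In wild-type replicates 1 and 2 alone, the share of *Nfix* was 30.2% and 29.5%, and that of *Nfic* 8.41% and 7.88%. Differences in these shares were not tested.

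The balance between *Nfix* and *Nfic* separated the genotypes with all 6 libraries included. The ratio of their RPKM levels was 3.59, 3.74 and 3.56 in wild type and 4.89, 4.79 and 5.59 in Ythdf2-/-. Wild-type replicate 3 lay with the other wild-type libraries on this measure, since both genes were high in it by a like factor. The log2 ratio was 0.48 higher in Ythdf2-/- (SD 0.0374 in wild type and 0.121 in Ythdf2-/-, n = 3 each). Of the 6 possible pairs of members this was the 1 pair whose groups did not overlap with all 6 libraries, and it was singled out after its values had been seen. Its exact permutation p was 0.1, the smallest that 3 against 3 allow, and 0.6 after Benjamini-Hochberg adjustment over the 6 pairs. Among 13111 other genes, the ratio to *Nfic* was higher in Ythdf2-/- without overlap for 322 (2.46%). Leaving out each library in turn gave log2 differences of 0.42 to 0.53, and 0.47 without wild-type replicate 3. As the groups did not overlap, leaving out 1 library could not have turned the direction. The other 5 pairs had log2 differences from -0.31 (*Nfic* to *Nfia*) to 0.20 (*Nfix* to *Nfib*), all with overlapping groups and adjusted permutation p of 0.6 to 0.8. When wild-type replicate 3 was left out, the 3 pairs with *Nfix* did not overlap, in 2 against 3 libraries. The log2 ratio was then 0.38 higher in Ythdf2-/- for *Nfix* to *Nfia*, where 1.59% of genes had a higher ratio to *Nfia* without overlap. It was 0.37 higher for *Nfix* to *Nfib* (2.03% of genes), and for *Nfix* to *Nfic* the share of genes was 3.11%. The 3 pairs without *Nfix* overlapped, with differences of -0.10 to 0.01.

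**Figure D3:**
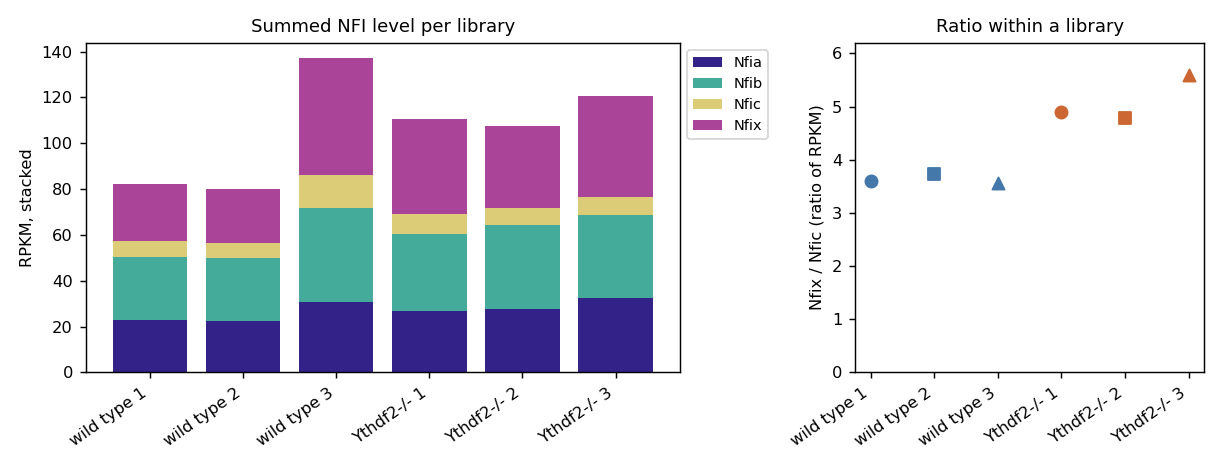
Left, RPKM of the 4 NFI genes stacked for each library (y axis from 0). Right, the ratio of *Nfix* to *Nfic* RPKM in each library (y axis from 0), which is 3.56 to 3.74 in the 3 wild-type libraries and 4.79 to 5.59 in the 3 Ythdf2-/- libraries.

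Across the 6 libraries, *Nfia* and *Nfib* had the most similar profiles within the family. Likeness was taken as the root mean square difference of log2 CPM after centring each gene on its own mean, over 9825 genes with a mean of at least 10 CPM. *Nfia* and *Nfib* were 0.0810 apart, which made *Nfib* the 49th gene in order from *Nfia*. The other pairs of members were 0.223 to 0.298 apart. The 3 genes most like *Nfia* were *Srcap* (0.0491), which encodes a chromatin remodelling ATPase, *Nrip1* (0.0524), a nuclear receptor corepressor gene, and *Ankrd17* (0.0542). Those most like *Nfib* were *Fam219aos* (0.0279), *Clcn6* (0.0292) and *Tet3* (0.0386), which encodes a 5-methylcytosine dioxygenase. *Fam219aos* is an antisense transcript, so its count is uncertain without the strand setting. *Ick* (0.0543), *Zcchc7* (0.0561) and *Zfp316* (0.0649) were closest to *Nfic*, and like it peaked in wild-type replicate 3. *Cecr6* (0.0613), *Shisa4* (0.0816) and *Sema6a* (0.0826), a transmembrane semaphorin gene, were closest to *Nfix*. These distances are descriptions over 6 libraries that share the outlying one.

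Among genes that act beside NFI in gliogenesis, none passed the test. Of 36 listed regulators, 34 were tested and 0 passed an adjusted p under 0.05 by edgeR (0 at an unadjusted p under 0.05), with 19 above and 15 below 0 and a median log2 fold change of 0.04, against -0.01 for all genes. Without wild-type replicate 3 there were 23 above and 11 below 0, with a median of 0.14 against 0.01 for all genes, and 7 of 34 had an unadjusted p under 0.05, against 2207 of 13283 genes tested. The median was -0.01 without either of the other wild-type libraries.

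*Sox9*, the partner of Nfia at the onset of gliogenesis, had 88.7, 94.6 and 346 CPM in wild type and 122, 114 and 88.1 CPM in Ythdf2-/-. Its log2 fold change was -0.71 with 6 libraries and 0.24 without wild-type replicate 3, where its level was highest. *Zbtb20*, a zinc finger gene that promotes astrocyte production, had 11, 11.8 and 30.0 CPM in wild type and 20.2, 16.7 and 19.6 CPM in Ythdf2-/-, with log2 fold changes of 0.10 and, without wild-type replicate 3, 0.73 (adjusted p = 0.170 from edgeR).

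In the Notch pathway, which keeps progenitors undifferentiated and primes them for glia, *Notch1* (receptor) had a log2 fold change of 0.19 with 6 libraries and 0.49 without wild-type replicate 3. A further receptor gene, *Notch2*, named after its values were seen, had 0.21 and 0.77 (adjusted p = 0.140 from edgeR without wild-type replicate 3). *Rbpj*, the transcription factor of the pathway, had -0.11 and 0.02. Its target *Hes1* had -0.66 and -0.02. A further target, *Hes5*, varied most, with 31.1, 27.9 and 219 CPM in wild type and 68.8, 114 and 18.2 CPM in Ythdf2-/-, and had -0.47 and 1.18. *Stat3*, the effector of astrocyte-inducing cytokines, had -0.32 and -0.26, and the oligodendrocyte lineage factor *Olig2* had 0.12 and -0.05.

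Of 14 genes listed as activated by NFI, 12 were tested and 0 passed, with 6 above and 6 below 0 and a median of 0.00. Of these 12, 1, *Gfap*, had an unadjusted p under 0.05, against 476 of 13112 genes tested. Without wild-type replicate 3 there were 7 above and 5 below 0, with a median of 0.13, against 0.01 for all genes. In that fit 2 of 12 had an unadjusted p under 0.05, against 2207 of 13283 genes tested. Both were lower in Ythdf2-/-, *Gfap* and, named after its values were seen, the cell cycle inhibitor gene *Cdkn1a* (-0.43, adjusted p = 0.174 from edgeR). The median was -0.12 without Ythdf2-/- replicate 2 and -0.07 without Ythdf2-/- replicate 3, so its direction rested on single libraries. *Gfap*, the astrocyte intermediate filament gene, had 437, 625 and 3046 CPM in wild type and 127, 87.7 and 5.55 CPM in Ythdf2-/-. Its log2 fold change was -4.22 (adjusted p = 0.999 from edgeR). Without wild-type replicate 3 the value was -2.85 (adjusted p = 0.254 from edgeR).

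The glial transporter gene *Slc1a3* had log2 fold changes of 0.34 with 6 libraries and 0.23 without wild-type replicate 3, and *Fabp7*, a radial glia fatty acid binding protein gene, had 0.14 and -0.22. *Apcdd1*, *Mmd2* and *Zcchc24*, genes that depend on Nfia in glial precursors, had 0.40, -0.15 and 0.04 with 6 libraries, and 0.72, 0.58 and 0.08 without wild-type replicate 3. *Apcdd1* rested on Ythdf2-/- replicate 2, with 96.1 CPM there against 5.55 to 39.4 CPM in the other libraries. *Cntn2*, a contactin gene, was near the detection limit at 0.342 to 3.57 CPM and had -0.47 and 1.34. *Insc*, with 0 to 8 reads in each library, was not tested.

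The 4 genes listed as repressed by NFI had 1 value above and 3 below 0, with a median of -0.41, and 2 above and 2 below 0 with a median of 0.11 without wild-type replicate 3. None passed in either fit. Without wild-type replicate 3, 2 of 4, *Ezh2* and *Bbx*, had an unadjusted p under 0.05, against 2207 of 13283 genes tested. *Ezh2*, the gene of a histone methyltransferase that keeps progenitors proliferating and a target of NFI repression in cortical progenitors, had 156, 132 and 68.9 CPM in wild type and 98.1, 124 and 96.7 CPM in Ythdf2-/-. Its log2 fold change was -0.17, and -0.44 without wild-type replicate 3 (adjusted p = 0.241 from edgeR). *Bbx* had 0.06 and 0.28, and *Sox9* and *Hes1*, also on this list, are given above.

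**Figure D4:**
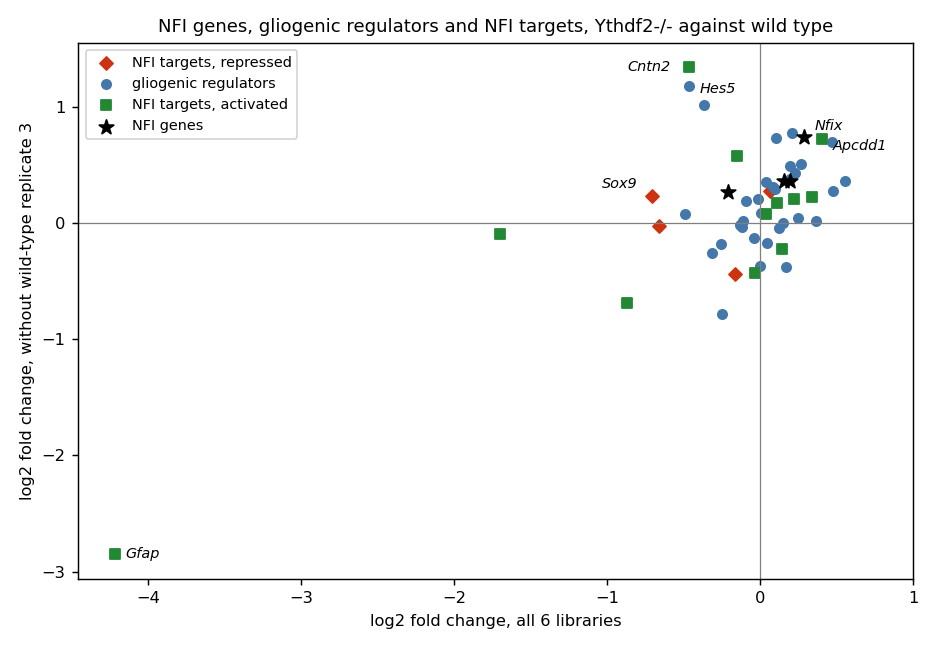
Log2 fold change of Ythdf2-/- against wild type with all 6 libraries (x axis) and without wild-type replicate 3 (y axis) for the NFI genes (stars), the tested gliogenic regulators and the tested NFI targets. All 4 NFI genes lie above the horizontal line, and *Gfap* lies at -4.22 and -2.85.

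Ythdf2 reads m6A, which is laid down mostly within short consensus sequences, so the members' transcripts were searched for GGACT, a form of that consensus, on the transcript strand only. In the longest GENCODE M21 coding transcript, *Nfia* held 7 matches (0.735 per kilobase), *Nfib* 12 (1.32), *Nfic* 11 (1.76) and *Nfix* 9 (1.64). The median of 12288 tested genes was 1.04 per kilobase, and 83.9% of them had a lower density than *Nfic*, 80.2% than *Nfix*, 66.4% than *Nfib* and 30.3% than *Nfia*. A match is not a methylated site, and no m6A measurement of the members was analysed here.

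The deposited FPKM and TPM values of the members rest on very few reads. Expected counts were 1 to 6 per library for *Nfia*, 2 to 15 for *Nfib*, 0 to 2 for *Nfic* and 1 to 12 for *Nfix*, against 508 to 4541 raw counts. *Nfic* was listed at 0 in 4 of the 6 libraries in these tables.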

How the data were processed

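RNA-seq input libraries of 3 wild-type and 3 Ythdf2-/- neurosphere cultures were grouped by their labels. The authors deposited raw counts, whole reads per gene without normalization, and separate tables of expected counts, TPM and FPKM. The submitters' processing notes name mm10, Bowtie2 2.2.9, RSEM 1.2.15 and featureCounts, and the paper's methods name TopHat and Cuffnorm. Strand and multimapping settings were not given in the sources used here. The expected counts summed to 1.97% to 2.40% of the raw counts.

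Raw counts of genes passing filterByExpr were tested with edgeR 4.0.16 in R 4.3.3 (TMM, glmQLFit with the robust option, glmQLFTest, genotype as the only term, Benjamini-Hochberg adjustment over all genes). DESeq2 1.42.0 and limma 3.58.1 were alternatives, limma also on log2(FPKM + 1), which understates changes of low genes. Log2 CPM used a prior count of 2, and principal components the 2000 most variable genes. RPKM levels, shares, ratios and sequence searches used Python 3.11.15 for gene lengths and sequences. Y-linked reads, leave-one-out fits and the replicate number as a block were further alternatives.

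The rule for members used symbols alone, but the family, gene lists and tests were chosen with earlier results of these data known. Named genes were *Ythdf2*, the members, the 3 genes most like each member, and list genes set by symbol. *Insc*, below the filter, was named by its counts alone. *Cdkn1a* and *Notch2* were named after their values were seen.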

Additional observations from a re-analysis of the deposited data

How the results depend on the processing

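The number of genes called was 0 with edgeR on all 6 libraries, 1 with RLE or upper-quartile factors, without a filter or with at least 10 reads in every library, 31 with DESeq2, 13 with the Y-linked term, 632 with sample quality weights, and 0 to 2 when 1 library was left out (2 without wild-type replicate 3). After the data had been seen, DESeq2 and limma-voom without wild-type replicate 3 were added and called 354 and 2. For *Nfia* 18 of 20 alternatives kept the direction and stayed over the threshold, and limma on log2(FPKM + 1) and log2(FPKM + 0.1) turned it to -0.51 and -0.90, on 1 to 6 expected counts per library. *Nfib* kept both in all 20. *Nfic* turned above 0 with the quality weights (0.32), without wild-type replicate 3 (0.27), and there with DESeq2 (0.27) and limma-voom (0.26). *Nfix* passed with the quality weights (0.76, adjusted p = 0.0279 from limma) and with DESeq2 without wild-type replicate 3 (0.74), and its adjusted p ran from 4.99e-04 to 0.99998 over the alternatives. Leaving out 1 library gave 0.11 to 0.36 for *Nfia*, 0.06 to 0.37 for *Nfib*, -0.42 to 0.27 for *Nfic* and 0.09 to 0.74 for *Nfix*, each highest without wild-type replicate 3. The cause was not tested. With wild-type replicate 3 left out, the genotype difference in the log2 ratio of *Nfib* to *Nfia*, -0.028 with 6 libraries, turned to 0.011, an alternative also added after seeing the data. The shares of the summed level over all libraries, 25.9% (*Nfia*), 32.1% (*Nfib*), 7.98% (*Nfic*) and 34.0% (*Nfix*), became 20.4%, 35.3%, 3.08% and 41.2% with the deposited TPM, which rests on few reads. With 1 library left out they ran from 25.5% to 26.6%, 31.6% to 32.6%, 7.48% to 8.28% and 33.3% to 34.9%. The replicate numbers share only a number: same-numbered libraries had correlations of deviations of -0.248, -0.244 and -0.394, and with the replicate block edgeR called 0 genes (183 at an unadjusted p under 0.05) and gave 0.20 (*Nfia*), 0.18 (*Nfib*), -0.11 (*Nfic*) and 0.38 (*Nfix*). The members had 508 to 4541 counted reads per library, *Nfic* fewest.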
